A study of Homo sapiens with 48 samples.

Results

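The NF-κB family has 5 subunit genes, NFKB1, NFKB2, REL, RELA and RELB, and the chromatin at these genes was examined in L3.6pl, a human pancreatic cancer cell line. The genes were taken by name from the GENCODE 44 annotation of hg38, 5 of 20033 protein-coding genes, and every peak overlapping a gene body or the 50 kb on either side of it was counted as lying in that gene's window. The data were ChIP-seq peak lists for the subunits RELA and RELB, for the AP-1 subunit FOSL1, and for acetylation of histone H3 at lysine 27 (H3K27ac), a mark of active promoters and enhancers. Cells received vehicle (PBS), TNFα or TWEAK, the cytokines for 30 min or 6 h, and FOSL1 was profiled in vehicle-treated cells. The length of the vehicle treatment is not given, and 1 vehicle list per target was set beside both times. Each of the 16 conditions had 3 replicates among 48 samples, but each was deposited as 1 list of merged replicates. No error between replicates and no test could therefore be given, and every value below describes a single list from 1 cell line. A site without a peak is a site that was not called at the depth of that list, which is unknown.

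NF-κB factors are dimers of these subunits. In the canonical branch, TNFα activates the IκB kinase complex, IκB inhibitors are degraded, and dimers such as RELA with the product of NFKB1 enter the nucleus. In the noncanonical branch, TWEAK acts through its receptor and the kinase NIK on the NFKB2 precursor, which is cut to a shorter subunit that partners RELB. NFKB1 and NFKB2 encode precursors with IκB-like ends, whereas REL, RELA and RELB carry the transactivation domains. Several genes of the pathway are known targets of NF-κB itself.

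Peaks of the 10 RELA and RELB lists in the 5 windows merged into 16 sites, with 5 sites at NFKB1, 3 at NFKB2, 1 at REL, 6 at RELA and 1 at RELB. Of these, 6 lay within 1.5 kb of the start of the gene's canonical transcript and are called main start sites, a distance set after the positions were seen. The NF-κB consensus, searched on both strands in the 200 bp around each summit, was matched at 9 of the 16 sites. The matches at 5 of the 6 main start sites are shown because RELA and RELB peaks met there. Letters are the plus strand of hg38, and capitals mark the bases of NF-κB consensus matches, overlapping matches being joined. Stretches that touch an annotated exon were kept to 30 bases.
NFKB1 site 1, chr4:102501300-102501329: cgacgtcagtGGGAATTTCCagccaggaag
NFKB2 site 1, chr10:102394462-102394491: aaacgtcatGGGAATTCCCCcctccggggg
NFKB2 site 1, second stretch, chr10:102394490-102394519: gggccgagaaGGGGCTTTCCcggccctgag
NFKB2 site 2, chr10:102395674-102395703: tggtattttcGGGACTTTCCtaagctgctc
REL site 1, chr2:60881518-60881547: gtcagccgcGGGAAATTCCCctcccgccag
RELB site 1, chr19:45001313-45001434: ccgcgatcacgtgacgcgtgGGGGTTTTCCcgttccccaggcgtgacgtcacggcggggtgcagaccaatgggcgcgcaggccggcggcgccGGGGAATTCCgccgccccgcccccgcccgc
The sixth main start site, at RELA itself, held no match, and the bases around its summit are given for comparison, all in lower case.
RELA site 3, chr11:65663172-65663201: tgtttttaggggatttcagggccccctccc
Away from the main starts, 4 of 10 sites held a match, and the 3 of these that were called in at least 2 lists are shown.
NFKB1 site 3, chr4:102553024-102553073: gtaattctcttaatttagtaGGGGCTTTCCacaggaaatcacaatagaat
RELA site 4, chr11:65652903-65652952: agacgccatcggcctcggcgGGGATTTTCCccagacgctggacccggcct
RELA site 6, chr11:65614373-65614402: gctccaggcGGGGAGTTCCCgggtaggcgg

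All 15 matches lay between 2 and 44 bp from the summit of their site. RELB site 1 held a pair of separate matches, 28 bp to one side and 44 bp to the other side of the summit. At NFKB2 site 1 there were 3 matches, of which 2 overlapped. The AP-1 sequence, TGACTCA or TGAGTCA on either strand, was found at 1 site, NFKB1 site 4 in intron 22, where it lay 5 bp from the summit.
NFKB1 site 4, chr4:102612939-102612985, AP-1 match in capitals: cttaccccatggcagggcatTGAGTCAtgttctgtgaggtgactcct

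The number of RELA peaks called in the windows differed between lists, and so did the length of the lists, from 2791 peaks at 30 min of TWEAK to 11266 at 30 min of TNFα. The 5 windows held 5 RELA peaks in vehicle, 1 per gene. They held 15 after 30 min of TNFα, 10 after 6 h of TNFα, 9 after 30 min of TWEAK and 5 after 6 h of TWEAK. The counts were also taken among the 3000 strongest peaks of each list, or all 2791 at 30 min of TWEAK. They were 5, 8, 9, 9 and 5 in the same order, and the 9 peaks at 30 min of TWEAK lay in 8 sites. At like list length the count at 30 min of TNFα was thus not higher than at 30 min of TWEAK. Lists of like length can still differ in content, and the share in tandem repeats was not computed for the TWEAK lists of RELA. This cut therefore cannot settle whether the ligands differ. All 5 genes had a RELA peak in every one of these lists. Among all protein-coding genes, a RELA peak fell in the window of 5.05% in vehicle, 48.1% and 26.8% at 30 min and 6 h of TNFα, and 7.58% and 5.12% at 30 min and 6 h of TWEAK. A RELA peak in the window after TNFα was thus common among genes, and a peak in vehicle or after TWEAK was not.

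RELB gave another pattern. Its vehicle list held 2 peaks in the 5 windows and its list of 6 h of TNFα held 2, all of them at NFKB2. Its lists of 30 min of TNFα and of 30 min of TWEAK held 0. After 6 h of TWEAK there were 8 RELB peaks, and all 5 genes had at least 1. The shares of all genes with a RELB peak in the window were 3.06% in vehicle, 1.59% and 3.87% at 30 min and 6 h of TNFα, and 1.41% and 13.6% at 30 min and 6 h of TWEAK.

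**Figure D1:**
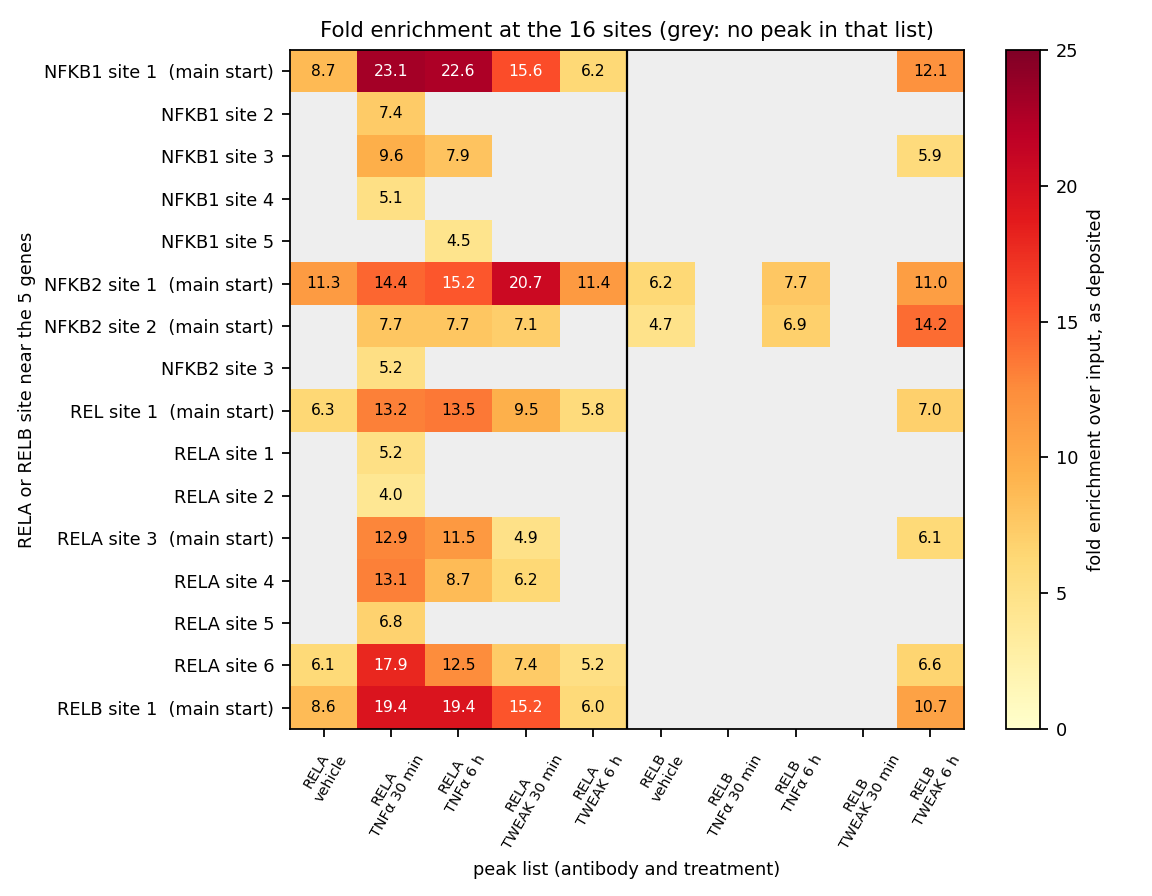
Fold enrichment of ChIP over input, as deposited, at the 16 RELA or RELB sites (rows) in each of the 10 RELA and RELB lists (columns); grey means that no peak was called. RELA site 6 and the main start sites of NFKB1, NFKB2 (site 1), REL and RELB were called in all 5 RELA lists, while RELB peaks stood at 8 sites after 6 h of TWEAK and only at NFKB2 in its other lists.

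Calls at the start sites were much rarer among all genes than calls in the windows. A RELA summit lay within 1 kb of an annotated start of 4 of the 5 genes in vehicle, where 0.559% of protein-coding genes had one. After 30 min and 6 h of TNFα it was 5 of 5, against 11.2% and 4.81% of all genes. After TWEAK it was 5 of 5 at 30 min, against 1.19%, and 4 of 5 at 6 h, against 0.544%. The gene without a call in vehicle and after 6 h of TWEAK was RELA. For RELB the counts were 1 of 5 in vehicle (0.255% of all genes), 0 and 1 at 30 min and 6 h of TNFα (0.11% and 0.349%), and 0 and 5 at 30 min and 6 h of TWEAK (0.0599% and 1.77%). A start called in the RELA list of TNFα at 30 min as well as in the RELB list of TWEAK at 6 h was held by 329 genes (1.64%), among them all 5 subunit genes. A start called in that RELB list and in every one of the 5 RELA lists was held by 54 genes (0.27%), among them NFKB1, NFKB2, REL and RELB. These combinations use lists in which most of the members had calls, so their shares are descriptive only.

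**Figure D2:**
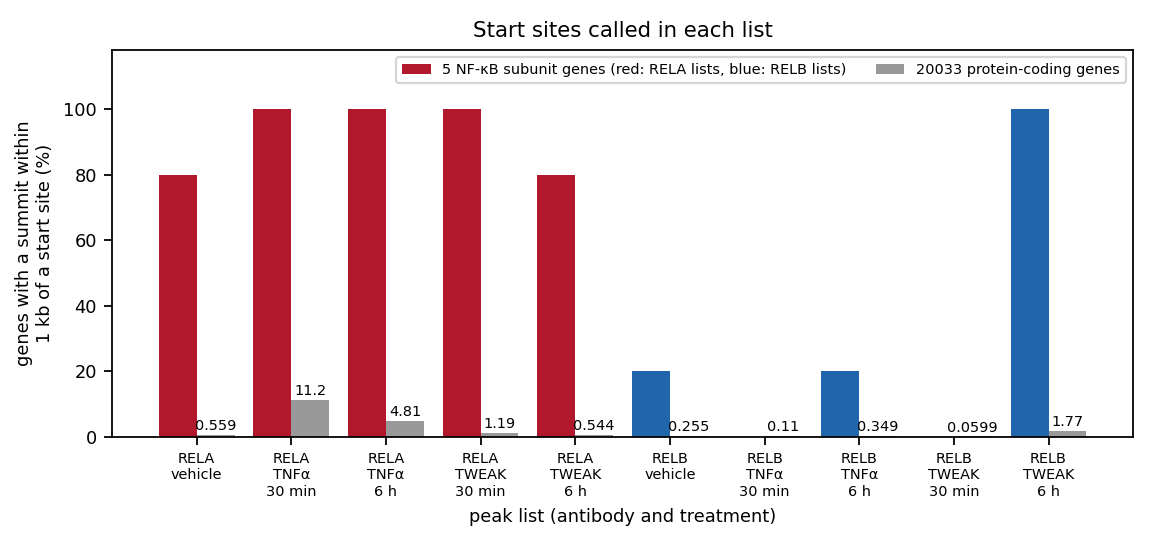
Percent of the 5 subunit genes (red for RELA lists, blue for RELB lists) and of 20033 protein-coding genes (grey, value printed above) with a summit within 1 kb of an annotated start site, by peak list. The subunit genes reached 5 of 5 in the RELA lists of both TNFα times and of 30 min of TWEAK and in the RELB list of 6 h of TWEAK.

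NFKB1 encodes the precursor of the usual partner of RELA. Its promoter site, 57 bp upstream of the canonical start, had a RELA fold enrichment over input of 8.72 in vehicle, 23.1 and 22.6 at 30 min and 6 h of TNFα, and 15.6 and 6.23 at 30 min and 6 h of TWEAK. Fold values of different lists are not on a common scale, so the place of a peak within its own list is given as well. The NFKB1 peak ranked 32 of 11266 RELA peaks at 30 min of TNFα and 24 of 7294 at 6 h of TNFα. In vehicle 85.7% of the list lay below it, and after 6 h of TWEAK 61.6%. RELB was called there only after 6 h of TWEAK, with a fold of 12.1 and 92.7% of that list below it. This was the 1 main start site of the family that did not overlap a FOSL1 peak in vehicle.

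The introns of NFKB1 held 3 sites with lower folds. Site 3, in intron 5, had RELA folds of 9.63 and 7.94 at 30 min and 6 h of TNFα, no RELA peak in vehicle or after TWEAK, and a RELB fold of 5.86 after 6 h of TWEAK. Site 2 in intron 1 was called for RELA only at 30 min of TNFα, with a fold of 7.38. Neither site had an H3K27ac peak within 500 bp of the summit in vehicle or after TWEAK at either time, and both had one after TNFα at both times. The H3K27ac folds were 2.41 and 2.46 at site 2 and 2.52 and 2.89 at site 3, in the order 30 min and 6 h. These were weak calls, below the list medians of 3.05 at 30 min and 2.99 at 6 h. At site 2 the 6 h peak ended at position 102525141, before the RELA site began at 102525210. At site 3 the 30 min calls were 2 peaks that covered 391 bp of the stretch searched. No other site of the family had H3K27ac in the TNFα lists alone. Site 4 in intron 22 was called for RELA at 30 min of TNFα with a fold of 5.09, on a FOSL1 peak of fold 8.85 and under H3K27ac in all 5 lists. It lay 508 bp from an annotated internal start of a shorter transcript. Site 5, downstream of the gene, was called only at 6 h of TNFα, with a fold of 4.52.

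NFKB2 encodes the precursor on which the noncanonical branch acts. It had a pair of start sites, site 1 at 1232 bp upstream of the canonical start and 30 bp from another annotated start, and site 2 at 2 bp past the canonical start, in the untranslated part of exon 1. At site 1 the RELA fold was 11.3 in vehicle, 14.4 and 15.2 at 30 min and 6 h of TNFα, and 20.7 and 11.4 at 30 min and 6 h of TWEAK. Its rank at 30 min of TWEAK was 22 of 2791, the highest of any site of the family in that list. By fold it stood below NFKB1 site 1 at 30 min of TNFα, whereas its −log10 q of 171 was above the 167 of NFKB1.

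RELB was found at both NFKB2 sites in the same 3 lists. At site 1 its fold was 6.17 in vehicle, 7.70 at 6 h of TNFα and 11.0 at 6 h of TWEAK. At site 2 it was 4.72, 6.94 and 14.2 in the same order, and the last was the highest RELB fold of the family, rank 172 of 4052. RELA at site 2 had folds of 7.74 and 7.75 at the TNFα times and of 7.12 after 30 min of TWEAK, with no peak in vehicle or after 6 h of TWEAK. The stronger RELA site of NFKB2 was thus the upstream one in every RELA list that called both, and the stronger RELB site after 6 h of TWEAK was the one at the canonical start. In vehicle and at 6 h of TNFα RELB had the higher fold at the upstream site. Site 3, downstream of NFKB2, was called only for RELA at 30 min of TNFα (fold 5.23), had a pair of consensus matches, and had no H3K27ac within 500 bp in any list.

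REL encodes the subunit best known from lymphoid cells. Its window held a single site, 35 bp upstream of the canonical start, with a RELA fold of 6.28 in vehicle, 13.2 and 13.5 at 30 min and 6 h of TNFα, and 9.51 and 5.85 at 30 min and 6 h of TWEAK. At 30 min of TWEAK 2 adjoining peaks made up this site. RELB was called only after 6 h of TWEAK, with a fold of 6.96 and 63.8% of the list below it.

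RELB, whose product is the RELB subunit itself, also had a single site, 99 bp upstream of the canonical start. The RELA fold was 8.64 in vehicle, 19.4 at both times of TNFα, and 15.2 and 5.99 at 30 min and 6 h of TWEAK. Its RELA peak ranked 62 of 7294 at 6 h of TNFα and 75 of 2791 at 30 min of TWEAK. A RELB peak stood at this promoter only after 6 h of TWEAK, with a fold of 10.7 and 89.2% of the list below it. The site lay on the strongest FOSL1 peak of the 5 windows in vehicle, with a fold of 19.8 and rank 229 of 58864.

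RELA is the gene of the main transactivating subunit of the canonical branch. Unlike the other 4 genes, it had no main start site that was called in all 5 RELA lists. Its promoter site, 270 bp upstream of the canonical start, had no RELA peak in vehicle or after 6 h of TWEAK. The same was true of NFKB2 site 2, at the canonical start of that gene. The RELA fold there was 12.9 and 11.5 at the TNFα times and 4.90 after 30 min of TWEAK, the last with 20.5% of its list below it. RELB was called after 6 h of TWEAK with a fold of 6.13, the lowest of the 6 main start sites in that list. The H3K27ac peak over this promoter was present in all 5 lists, with folds between 3.99 and 4.23.

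The other 5 sites of the RELA window lay outside the gene, most of them at the starts of its neighbours. Site 6 was 48532 bp past the RELA start and 135 bp from a start of MAP3K11, a kinase gene, and it was the 1 RELA peak of the window in vehicle (fold 6.09). Its folds were 17.9 and 12.5 at 30 min and 6 h of TNFα, 7.37 and 5.23 at 30 min and 6 h of TWEAK, and its RELB fold after 6 h of TWEAK was 6.62. The RELA call of the RELA gene in vehicle therefore rested on a site nearer to another gene. Site 4, 10002 bp past the start and 2632 bp from a start of SIPA1, had RELA folds of 13.1 and 8.66 at the TNFα times and of 6.21 after 30 min of TWEAK. Sites 1 and 2, at a start of KAT5, and site 5, at a start of SIPA1, were called only at 30 min of TNFα, with folds of 5.16, 4.04 and 6.78.

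**Figure D3:**
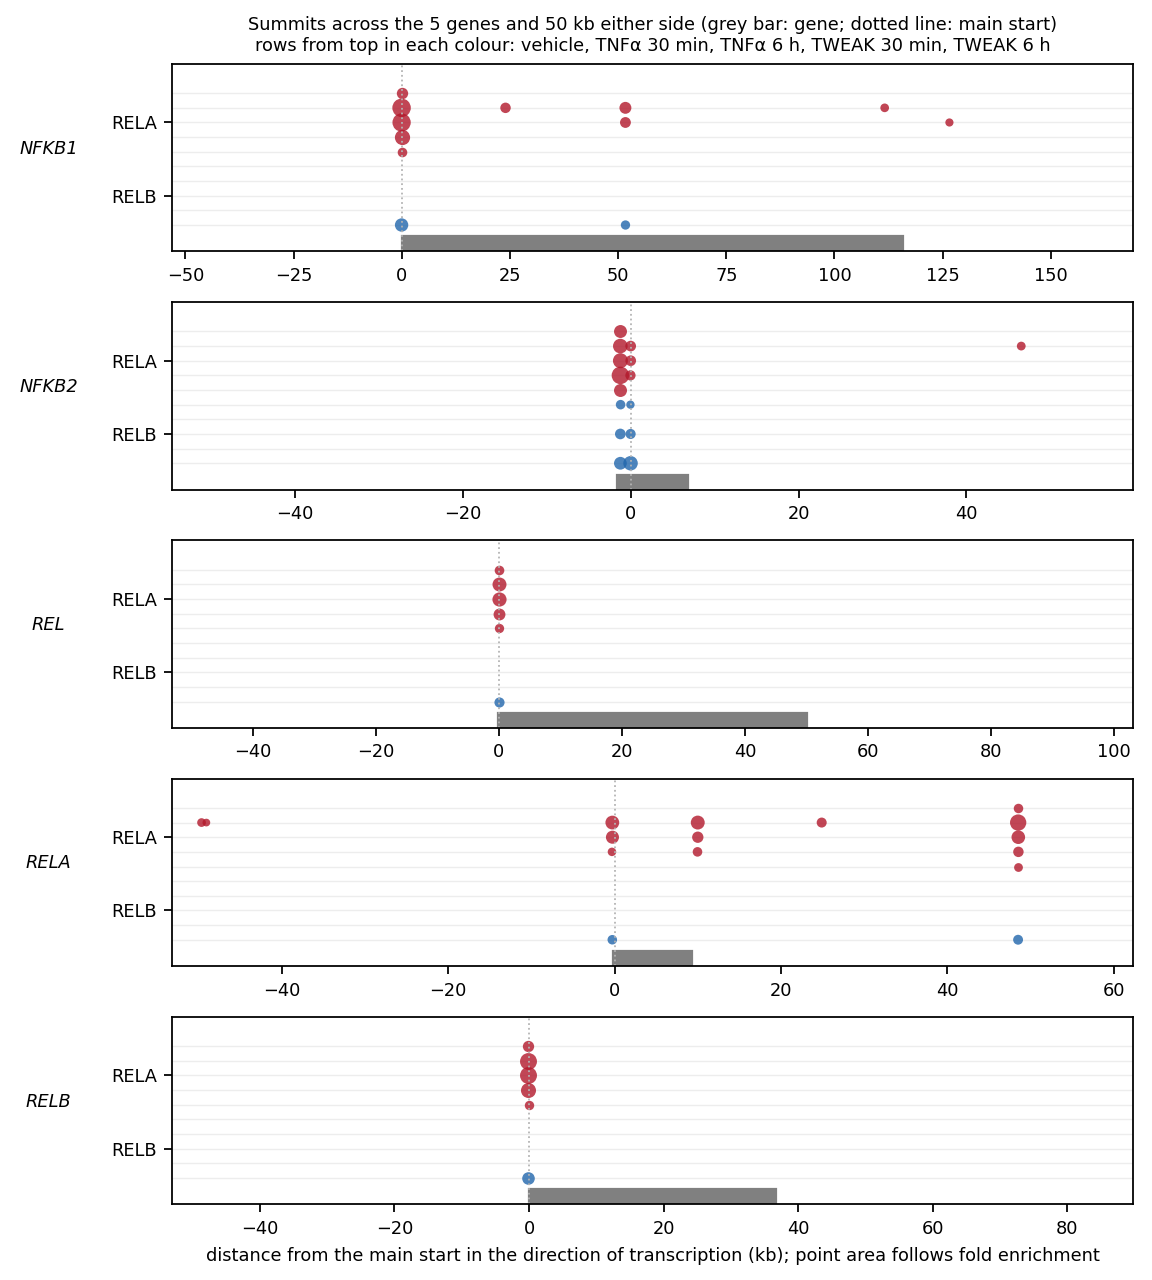
Summits of RELA (red) and RELB (blue) peaks by distance in kb from the canonical start of each subunit gene, 1 row per list and with point area following fold enrichment. At REL and RELB every summit sits at the start, whereas the windows of NFKB1 and RELA hold further sites that appear mostly in the TNFα rows.

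Across the family, the summits of the sites called in 3 or more lists had a spread of 18 to 59 bp between lists and antibodies. Sites were made by merging overlapping peaks, which itself limits this spread. The spread over all merged sites was not computed. All 8 RELB sites of 6 h of TWEAK were also RELA sites of 30 min of TNFα, beside 76.1% of all RELB peaks of that list and 80.0% of those outside tandem repeats of the genome sequence. Read from the RELA side, 8 of the 15 RELA sites overlapped RELB, beside 27.3% of all RELA peaks of 30 min of TNFα and 15.7% of those outside repeats. Of the 8 shared sites, 7 held an NF-κB consensus match, beside 31.0% of all RELA peaks that overlapped RELB and 70.8% of those outside repeats. Of the 7 RELA sites without RELB, 2 did, beside 39.9% of all such peaks and 45.6% of those outside repeats. There were 6 sites called in the RELA list of 30 min of TNFα alone and 1 at 6 h of TNFα alone, and the lists of TWEAK added no site that TNFα did not have. Shares of all merged sites with these patterns were not computed. The RELA list of 30 min of TNFα held 11266 peaks, and those of 30 min and 6 h of TWEAK held 2791 and 3677. These counts therefore cannot be read as particular to the family. Main start sites stood higher in the RELA list of 30 min of TNFα, with folds between 7.74 and 23.1 and a median of 13.8, than the 9 other sites called there, with folds between 4.04 and 17.9 and a median of 6.78. The median over that whole list was 5.93.

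**Figure D4:**
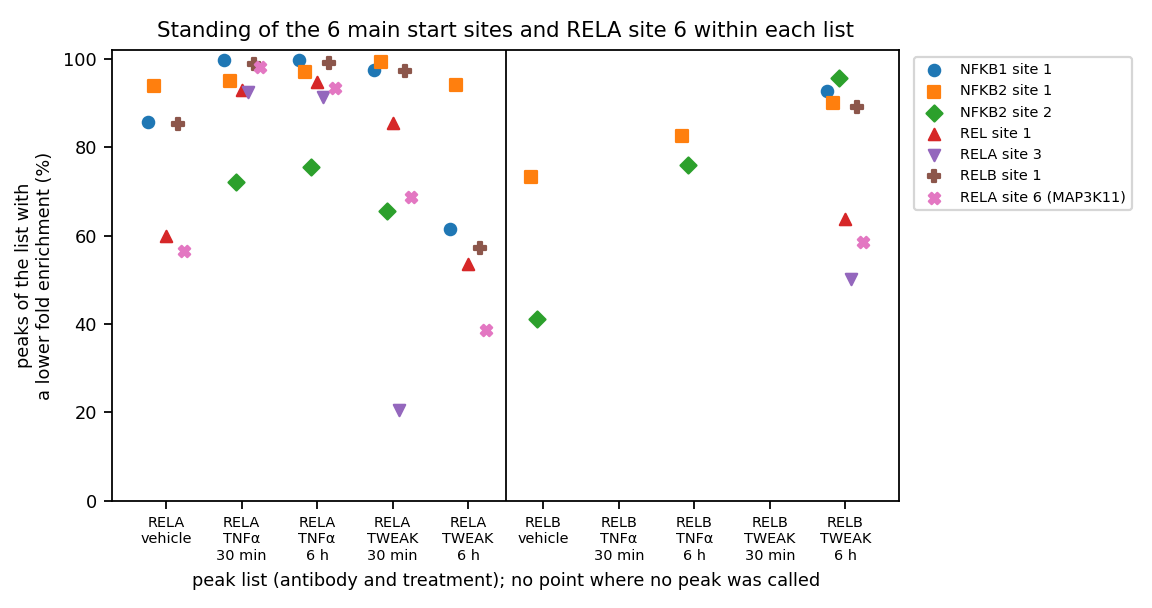
Percent of the peaks of each list that have a lower fold enrichment than the site shown, for the 6 main start sites and RELA site 6, by list. In the RELA lists of TNFα all points but NFKB2 site 2 lie at 91.4% or above, and after 6 h of TWEAK NFKB2 site 1 lies at 94.0% of the RELA list and the other points at 61.6% or below.

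The standing of the subunit genes within a list depends on what else the list holds. Of the RELA peaks in vehicle, 85.6% lay in tandem repeats by sequence, as did 26.3% of the RELA peaks of 30 min of TNFα and 59.6% of the RELB peaks of 6 h of TWEAK, and no site of the family did (0 of 16). The part of these repeats in the ranks was not tested. NF-κB matches were found at 9 of the 15 RELA sites of 30 min of TNFα, or 60% (exact 95% interval 32.3% to 83.7%, counting error only), beside 37.5% of all RELA peaks of that list and 49.6% of those outside repeats. Both shares of the list lie within the interval. In the RELB list of 6 h of TWEAK 27.2% of all peaks and 64.7% of those outside repeats had a match. Of the 300 bp promoters that RefSeq gives for hg38 genes, 12.7% held a match; 4 of 5 subunit genes had an entry, and 4 of their 8 promoters held one.

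FOSL1 was present at the 5 genes before any cytokine. Its vehicle list had 38 peaks in the 5 windows, with 4 to 11 per gene, and 90.5% of all genes had at least 1 in theirs. All 5 genes had a FOSL1 summit within 1 kb of an annotated start, as did 50.1% of protein-coding genes. The members have 6 to 24 annotated starts each, any of which can meet this rule. The promoter site of NFKB1, site 1, overlapped no FOSL1 peak. Of the 16 RELA or RELB sites, 11 overlapped a FOSL1 peak. For the RELA sites of 30 min of TNFα it was 10 of 15, or 66.7% (exact 95% interval 38.4% to 88.2%), beside 58.0% of that whole list. FOSL1 folds at the main start sites ran from 2.93 at NFKB2 site 2 to 19.8 at RELB. Other forms that AP-1 proteins may bind were not searched. The AP-1 sequence given above, the only form searched, was not found within the searched windows of the main start sites. It was found in 38.2% of FOSL1 peaks of the genome and in 11.1% of RELA peaks of 30 min of TNFα.

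H3K27ac marked the starts of all 5 genes in all 5 lists, as it did those of 66.8% of protein-coding genes in vehicle, 64.9% and 66.6% at 30 min and 6 h of TNFα, and 65.5% and 66.3% at 30 min and 6 h of TWEAK. Within 500 bp of a summit, 13 of the 16 sites had an H3K27ac peak in vehicle, 15 at each time of TNFα, and 12 and 13 at 30 min and 6 h of TWEAK. Over all RELA peaks of 30 min of TNFα the shares were 60.1% in vehicle, 71.2% and 67.1% at the TNFα times and 63.3% and 60.6% at the TWEAK times, so the whole list also had more H3K27ac peaks after TNFα than in vehicle. The length covered by H3K27ac peaks in the 5 windows together was 37.2 kb in vehicle, 40.3 kb and 40.2 kb at 30 min and 6 h of TNFα, and 34.0 kb and 33.2 kb at 30 min and 6 h of TWEAK. The ratios to vehicle were 1.08, 1.08, 0.914 and 0.892 in that order, with the same vehicle list beside both times. With peaks of −log10 q of at least 3 alone, the first of these fell to 0.970. The median ratio over the 18330 protein-coding genes with H3K27ac in vehicle was 0.847, 0.994, 0.876 and 0.874, since the lists differ in total length.

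The gene windows differed in this measure. Each window holds 2 to 6 protein-coding genes, the subunit gene included, so H3K27ac of neighbours is counted too. The values per window were not recomputed with peaks of −log10 q of at least 3. At 30 min of TNFα the ratio was 1.35 for RELB, 1.27 for NFKB2, 1.07 for NFKB1 and 1.00 for RELA, all above the upper quartile of 0.958 over all genes, and 0.845 for REL. At 6 h of TNFα it was 1.35 for NFKB1, where the upper quartile was 1.08, and 1.05 for RELB. NFKB2 lay above the upper quartile in all 4 treated lists. REL lay below 1 in all 4, between 0.770 and 0.845, and below the lower quartile at both 6 h times. At 30 min of TNFα REL was near the median of 0.847 over all genes. NFKB1 had ratios of 0.823 and 0.771 at 30 min and 6 h of TWEAK, the latter below the lower quartile of 0.787. RELA and RELB also lay below 1 at both times of TWEAK. At NFKB2 the vehicle list had separate H3K27ac peaks over its pair of start sites, and in each treated list 1 peak spanned both.

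**Figure D5:**
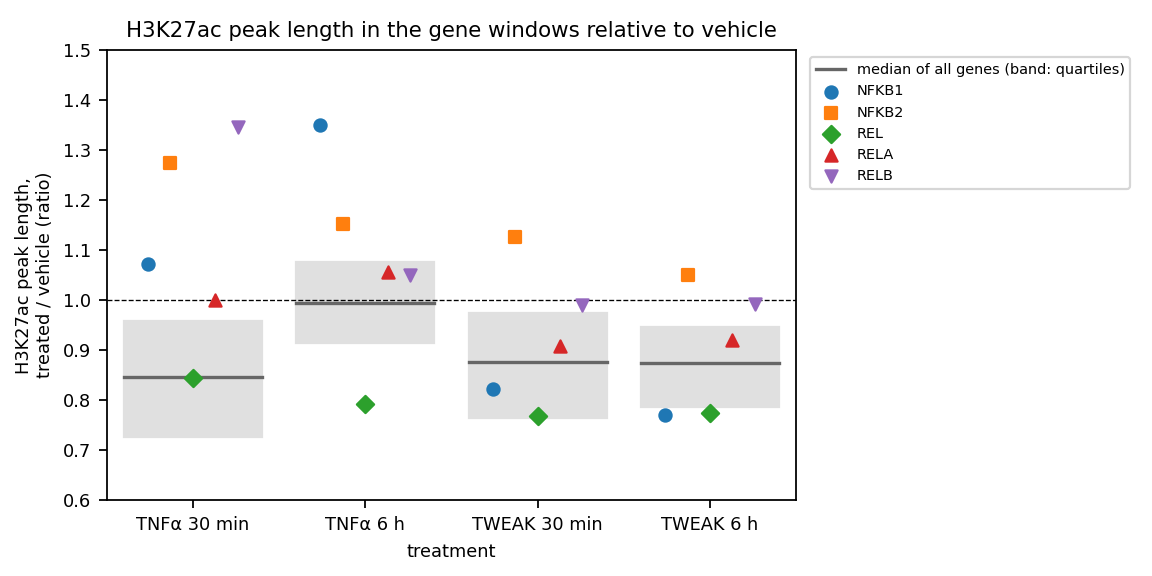
Ratio of the length covered by H3K27ac peaks after treatment to that in vehicle for each gene window (points), with the median (line) and quartiles (band) over 18330 protein-coding genes, by treatment. RELB and NFKB2 stand highest at 30 min of TNFα (1.35 and 1.27), NFKB1 at 6 h of TNFα (1.35), and REL lies between 0.770 and 0.845 throughout.

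The RELA and RELB profiles of the family members over the 10 lists, taken as log2 of the best fold in the window plus 1, were closer to each other than to NFKB2 for 4 of the genes. Pearson's r between NFKB1, REL, RELA and RELB was 0.991 to 1.000, and between NFKB2 and each of them 0.760 to 0.777. The 10 points share many absent values, so r is high wherever the same lists have a call. For the RELA window the best peak was site 6 at the MAP3K11 start in all 6 lists with a call, so its r describes that site and not the RELA promoter, which had no RELA peak in vehicle or after 6 h of TWEAK. Among 10130 other genes, the 3 most similar to NFKB1 were KLHL15, EIF2S3 and PPIAL4G (r = 0.999 each). KLHL15 and EIF2S3 had the same best peak, with folds of 19.5 in the RELA list of TNFα at 30 min and 11.0 in the RELB list of TWEAK at 6 h. Those nearest to NFKB2 were PLA2G6, MAFF and TMEM184B (r = 0.987), with 1 shared peak of 19.8 and 16.4.

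A list of 20 further genes of the pathway, without the 5 subunits, was counted in the same way at their starts. RELA was called at the starts of 11 in vehicle, 13 and 12 at 30 min and 6 h of TNFα, and 11 and 10 at 30 min and 6 h of TWEAK. RELB was called at 6 in vehicle, 2 and 7 at 30 min and 6 h of TNFα, and 0 and 9 at 30 min and 6 h of TWEAK. Of all protein-coding genes, the shares with a RELA start call in the same order were 0.559%, 11.2%, 4.81%, 1.19% and 0.544%. For RELB they were 0.255%, 0.11%, 0.349%, 0.0599% and 1.77%. By role, the RELA list of 30 min of TNFα called the starts of 6 of 6 IκB genes and 6 of 8 genes of receptor adaptors and regulators. It called the starts of 1 of 4 kinase genes and 0 of 2 receptor genes. RELB at 6 h of TWEAK was called at 3 of the 6 IκB genes and at 6 of the 8 adaptor and regulator genes. In vehicle, H3K27ac marked the starts of 5 of 5 epithelial marker genes, 1 of 5 lymphoid and myeloid and 2 of 4 fibroblast and endothelial marker genes. The share over all protein-coding genes was 66.8%.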

How the data were processed

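ChIP-seq of L3.6pl cells comprised 48 samples in 16 conditions, grouped by their labels. Per the labels and the study's methods, reads were aligned by the authors with Bowtie2 2.5.0 (hg38), and the authors called peaks against input with MACS2 (version not given in the sources used here), 1 list per condition from merged replicates. Peak names in the RELA list of 30 min of TNFα leave unsettled whether all 3 replicates were merged. RELA was precipitated with protein G beads and the other targets with protein A. The deposited fold enrichment is the authors' ratio of ChIP over input at the summit, or averaged over a broad H3K27ac peak. The deposited −log10 q is the authors' significance of the peak. The other 32 columns (score and −log10 p) were not used. Depth per sample is unknown, which leaves the precision of each value unknown.

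GENCODE 44 gene bodies were joined to the peaks on chromosomes 1 to 22, X and Y, with 50 kb either side (overlap of at least 1 bp). Motifs were searched in 200 bp around the summit in the RELA list of 30 min of TNFα or, for the site not called there, in the list that called it. A summit lay in a tandem repeat when the 1000 bp around it matched themselves at a shift of up to 400 bp with a share of at least 0.4. Python 3.11.15, numpy 2.4.6, pandas 2.3.3 and pysam 0.24.0 were used, and overlap, motif and repeat functions were tested on simulated data. Sequences are from hg38, and promoter entries from RefSeq (hg38). Sites named were those within 1 kb of a start, the strongest in the RELA list of 30 min of TNFα and the RELB list of 6 h of TWEAK, and those called in vehicle; the remaining sites were named with their values in view, as was the 1.5 kb limit of a main start. The most similar genes were the 3 with the highest r per member. The subunit genes and the pathway and marker lists were chosen with earlier results of these data known. No test was made, since no replicate values were used here. Alternatives were a −log10 q of at least 3, a fold of at least 5, windows of 10 and 100 kb, and other repeat, overlap, motif and start distance rules.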

Additional observations from a re-analysis of the deposited data

How the results depend on the processing

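Of 10 results recomputed under 12 settings, 58 values were obtained besides the main ones. The H3K27ac length ratio of 30 min of TNFα to vehicle changed direction, from 1.08 to 0.970, with peaks of −log10 q of at least 3, and it was 1.25 with 10 kb and 1.03 with 100 kb either side. With the 3000 strongest peaks of each RELA and RELB list, a setting chosen after seeing the data, the RELA sites of 30 min of TNFα numbered 8 in place of 15, because fewer peaks were used, and the share with an NF-κB match was 87.5% in place of 60%. The share with a match among all of the 3000 strongest peaks was not computed. This rise therefore cannot be read as particular to the subunit genes. The other counts stayed within 1.5 times their main value and the other shares within their interval: 10 RELA sites with 10 kb and 22 with 100 kb either side, 7 to 9 RELB sites, and 5 of 5 genes under every setting run. The shares of all protein-coding genes under these settings were not computed. No paired analysis was possible because each condition was a single list of merged replicates, and for the same reason no replicate could be left out.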
